A study of Mus musculus with 19 samples.

Results

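The genes described here encode ligands and receptors of fibroblast growth factor (FGF) signalling. They are the ligand genes Fgf2, Fgf7, Fgf9, Fgf10 and Fgf18 and the receptor genes Fgfr1, Fgfr2, Fgfr3, Fgfr4 and Fgfrl1. They were listed by name, with earlier results of these data known. They make up 10 of the 18193 genes and 22 of the 45101 probe sets of the table. The members were followed over 19 arrays of skeletal cells sorted by surface antigens, of which 18 came from mice at postnatal day 3 and 1 from an adult.

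FGF ligands are secreted proteins that bind receptor tyrosine kinases together with heparan sulfate chains on the cell surface and in the matrix. Receptor activation feeds the RAS and MAP kinase cascade and induces inhibitors that act back on it. In the growing limb skeleton, Fgfr3 is known for restraining chondrocyte proliferation in the growth plate, Fgfr1 and Fgfr2 for their roles in perichondrium and bone-forming cells, and Fgf9 and Fgf18 as ligands that act on cartilage.

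The neonatal mice were wild-type, described in the protocol as GFP-labeled, and fore and hind limbs of a pooled litter gave each sample. Every population passed the gate CD45-Ter119-Tie2-AlphaV+, and the 6 populations, of 3 arrays each, were Thy+6C3- cells with and without CD105 (Thy+6C3-CD105+ and Thy+6C3-CD105-), Thy-6C3+ cells (likewise Thy-6C3+CD105+ and Thy-6C3+CD105-) and Thy-6C3- cells (Thy-6C3-CD105+ and Thy-6C3-CD105-). Thy, 6C3 and CD105 are cell surface antigens encoded by Thy1, Enpep and Eng. The Thy step sets Thy+6C3- cells against Thy-6C3- cells at the same CD105 status. The 6C3 step sets Thy-6C3+ cells against the same Thy-6C3- arrays, so the Thy and 6C3 steps share these arrays. The adult array, labelled Thy+6C3+CD105+, has a source field naming sternum and ear and a tissue field naming limbs, and it entered no test. The labels do not say whether replicates came from separate litters, so the p-values measure only the spread between these samples, which may be technical.

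Levels are quantile-normalised log2 intensities, and they were compared between arrays for 1 probe set at a time. Of the sorted antigens, Thy1 and Enpep followed the gates. Thy1 averaged 10.34 ± 0.14 in Thy+6C3-CD105+ and 10.23 ± 0.21 in Thy+6C3-CD105- cells, against 5.37 to 5.81 in the other populations (SD, n = 3 each), and Enpep averaged 10.84 ± 0.13 on the Thy-6C3+CD105+ arrays and 10.97 ± 0.24 on the Thy-6C3+CD105- arrays, against 7.27 to 8.32 elsewhere. Eng averaged 8.49 to 8.64 in the CD105+ populations, against 7.20 to 7.90 in the CD105- populations, and passed in no CD105 step. Replicates 2 and 3 of Thy-6C3+CD105- carry titles that name Thy+, but Thy1 ran from 5.71 to 5.95 on the arrays of that population, far below the Thy+6C3- arrays. A pair of arrays stood apart. Replicate 2 of Thy-6C3+CD105- had the highest deposited median, 6.02 against 5.60 at the lowest, and replicate 3 of Thy+6C3-CD105- correlated least with its replicates (mean Pearson r 0.936 over genes, which are not independent replicates). In bulk RNA, fewer cells of a type and less RNA per cell cannot be told apart.

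Across the 6 populations, 4 of the 10 members passed limma's F-test (adjusted p 6.17e-07 for Fgfr3, 0.000145 for Fgf9, 0.000795 for Fgfrl1 and 0.0172 for Fgfr2), while 10.1% of all genes passed. In the fit of all probe sets, 7 members passed by any set of the gene, adding Fgf7, Fgfr4 and Fgfr1. There 7.57% of single probe sets passed, which is not a share of genes by any set. Fgf2, Fgf10 and Fgf18 did not pass (adjusted p 0.337, 0.743 and 0.0937).

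Promoter sequences are shown for the receptors with the strongest gradients, Fgfr3 and Fgfrl1, and for Fgf9, the ligand lowest in Thy-6C3- cells. They are RefSeq sequences of build GRCm38.p6, from 250 bases before to 50 after an annotated start, all on the plus strand. Of the 10 genes 9 had an entry in the promoter table. The windows lie at chr5:33721474-33721773 for Fgfr3, chr5:108693979-108694278 for Fgfrl1 and chr14:58072436-58072735 for Fgf9. Those of Fgfr3 and Fgfrl1 stand at the first base of the annotated gene. The annotated Fgf9 gene begins earlier, at 58070671, so its window lies inside the gene and is not at a like position. Capitals mark GC boxes, the letters GGGCGG on either strand, which are recognised by SP family factors.
Fgfr3: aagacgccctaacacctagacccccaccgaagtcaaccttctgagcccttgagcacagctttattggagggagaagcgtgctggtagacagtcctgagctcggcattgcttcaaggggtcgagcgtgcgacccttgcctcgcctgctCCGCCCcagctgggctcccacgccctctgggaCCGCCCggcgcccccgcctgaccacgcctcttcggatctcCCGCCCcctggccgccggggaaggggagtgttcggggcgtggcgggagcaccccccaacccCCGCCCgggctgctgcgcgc
Fgfrl1: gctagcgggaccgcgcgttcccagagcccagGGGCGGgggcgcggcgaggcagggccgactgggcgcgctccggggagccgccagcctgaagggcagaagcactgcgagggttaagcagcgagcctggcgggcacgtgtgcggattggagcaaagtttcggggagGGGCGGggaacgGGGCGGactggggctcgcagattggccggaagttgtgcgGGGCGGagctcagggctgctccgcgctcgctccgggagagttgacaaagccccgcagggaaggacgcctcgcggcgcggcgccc
Fgf9: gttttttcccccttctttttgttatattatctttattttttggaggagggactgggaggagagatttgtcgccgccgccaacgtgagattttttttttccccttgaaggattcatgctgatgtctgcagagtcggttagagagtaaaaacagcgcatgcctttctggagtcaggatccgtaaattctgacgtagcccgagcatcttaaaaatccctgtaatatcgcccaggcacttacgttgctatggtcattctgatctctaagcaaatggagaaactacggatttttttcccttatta
The Fgfr3 and Fgfrl1 windows each held 4 GC boxes, as did that of Fgfr4, and 5.49% of 32851 promoters in the table held 4 or more. At least 1 GC box stood in 35.7% of them. The Fgfr3 and Fgfrl1 windows were 69.7% and 73.7% G or C and the Fgf9 window 42.7%, against a median of 52.7% over all promoters. This did not divide receptors from ligands, as the Fgfr2 window was 43.7% and the Fgf18 window 78.7% G or C. The Fgf9 window held no GC box, no TATA box (TATAAA, in 13.6% of promoters) and no SOX core (ACAAT, in 31.0%). The windows of Fgf7 and Fgfr2 likewise held no GC box. A second annotated start of Fgfr3 had 2. These matches describe letters in 1 window and say nothing of binding.

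Fgfr3, a receptor tyrosine kinase of growth plate cartilage, was graded over the populations. By the means of 1421841_at it was lowest in Thy+6C3- cells, intermediate in Thy-6C3+ cells and highest in Thy-6C3- cells. The Fgfr3 level was 7.78, 7.88 and 7.74 on the Thy+6C3-CD105+ arrays and 7.60, 7.45 and 5.87 on the Thy+6C3-CD105- arrays (probe set 1421841_at). It was 9.25, 8.66 and 8.92 in Thy-6C3+CD105+ cells and 8.61, 7.52 and 8.85 in Thy-6C3+CD105- cells. On the Thy-6C3- arrays it was 11.11, 11.25 and 11.11 with CD105 and 11.50, 11.91 and 11.12 without. No neonatal array of a Thy+ or 6C3+ population reached any Thy-6C3- array, and within Thy+6C3-CD105- replicate 3 lay far below the others.

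In the Thy step, Fgfr3 fell 10.2-fold in CD105+ cells (log2 change -3.36 ± 0.38, SE; adjusted p 1.5e-05) and 23.2-fold in CD105- cells (log2 change -4.54 ± 0.38; adjusted p 4.62e-07), both by limma. In the 6C3 step it fell 4.63-fold in CD105+ cells (log2 change -2.21 ± 0.38; adjusted p 0.00471) and 9.08-fold in CD105- cells (log2 change -3.18 ± 0.38; adjusted p 7.19e-05). Each of these 4 calls held when any array of either group was left out. Thy+6C3- cells set against Thy-6C3+ cells gave a log2 change of -1.14 with CD105 and -1.36 without, and neither passed (adjusted p 0.194 and 0.076). In CD105- cells this contrast passed without Thy-6C3+CD105- replicate 2 (log2 change -1.76, adjusted p 0.028), Thy+6C3-CD105- replicate 1 (-1.67, 0.0364) or Thy+6C3-CD105- replicate 2 (-1.59, 0.0428), and it passed in both CD105 states without the 2 arrays that stood apart (adjusted p 0.00146 in CD105+ and 0.0128 in CD105- cells).

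The second Fgfr3 probe set, 1425796_a_at, was also highest in Thy-6C3- cells, at 7.08 ± 0.13 and 7.18 ± 0.73, against 5.37 to 5.90 on average in the other populations. It fell in both Thy steps (log2 change -1.71 and -1.27, adjusted p 0.004 and 0.0191) and in the 6C3 step of CD105- cells (-1.38, adjusted p 0.0415), while the 6C3 step of CD105+ cells gave -1.25 (adjusted p 0.125). With this probe set Thy+6C3-CD105- averaged 5.90 and Thy-6C3+CD105- 5.80, so the order of Thy+ and 6C3+ populations seen with 1421841_at did not carry over. In rising order of the 1421841_at means, Thy+6C3-CD105- stood at 6.97, Thy+6C3-CD105+ at 7.80, Thy-6C3+CD105- at 8.33, Thy-6C3+CD105+ at 8.94, Thy-6C3-CD105+ at 11.16 and Thy-6C3-CD105- at 11.51. The only neighbours in this order that differed by the test were Thy-6C3+CD105+ and Thy-6C3-CD105+ (adjusted p 0.00471).

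Fgfrl1, which binds FGF but lacks the kinase domain of the other receptors, had the same order of populations as Fgfr3. Its level was 9.96, 9.67 and 9.66 in Thy+6C3-CD105+ and 9.94, 9.40 and 8.71 in Thy+6C3-CD105- cells (probe set 1447878_s_at). In Thy-6C3+ cells it was 10.57, 10.72 and 10.62 with CD105 and 10.55, 8.93 and 10.42 without. Thy-6C3-CD105+ arrays stood at 11.16, 11.53 and 11.30 and Thy-6C3-CD105- arrays at 11.23, 11.52 and 11.45. All Thy-6C3- arrays were above all other neonatal arrays, and replicate 2 of Thy-6C3+CD105- was 1 of the arrays that stood apart and lay among the Thy+ arrays.

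Fgfrl1 fell 2.96-fold in the Thy step of CD105+ cells (log2 change -1.56 ± 0.33, SE; adjusted p 0.00631) and 4.15-fold in that of CD105- cells (-2.05 ± 0.33; adjusted p 0.000528). It fell 2.71-fold in the 6C3 step of CD105- cells (-1.44 ± 0.33; adjusted p 0.0239), but without Thy-6C3+CD105- replicate 2 the change was -0.92 (adjusted p 0.0798). That call was also lost without Thy-6C3-CD105- replicate 1 (-1.52, adjusted p 0.0526), replicate 2 (-1.38, 0.0801) or replicate 3 (-1.41, 0.0843). The 6C3 step of CD105+ cells gave -0.69 ± 0.33 (adjusted p 0.671), and it passed with the compared populations only (adjusted p 0.0218) and without the 2 arrays that stood apart (adjusted p 0.0257).

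The other Fgfrl1 probe set, 1451912_a_at, separated the arrays of all 3 kinds of cells. Its SD was below that of 1447878_s_at in Thy+6C3-CD105- (0.17 against 0.62) and Thy-6C3+CD105- cells (0.17 against 0.90). It was also lower in Thy-6C3-CD105+ cells (0.15 against 0.18) and alike in Thy+6C3-CD105+ cells (0.17 for both sets). In Thy-6C3+CD105+ (0.15 against 0.08) and Thy-6C3-CD105- cells (0.19 against 0.15) it was higher. With CD105, Thy+6C3- arrays averaged 8.56 ± 0.17, Thy-6C3+ arrays 9.68 ± 0.15 and Thy-6C3- arrays 10.44 ± 0.15 (SD, n = 3 each). Without CD105 the averages were 8.24 ± 0.17, 9.61 ± 0.17 and 10.44 ± 0.19 for the same 3 kinds of cells. With it, Thy+6C3- cells were lower than Thy-6C3+ cells, with log2 changes of -1.12 in CD105+ cells (adjusted p 0.00115) and -1.37 in CD105- cells (adjusted p 0.000414). Thy-6C3+ cells were in turn lower than Thy-6C3- cells, with a change of -0.84 in CD105- cells (adjusted p 0.0167) and -0.76 in CD105+ cells (adjusted p 0.0606). The Thy-6C3+ arrays of this probe set did not overlap the Thy-6C3- arrays in either CD105 state.

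**Figure D1:**
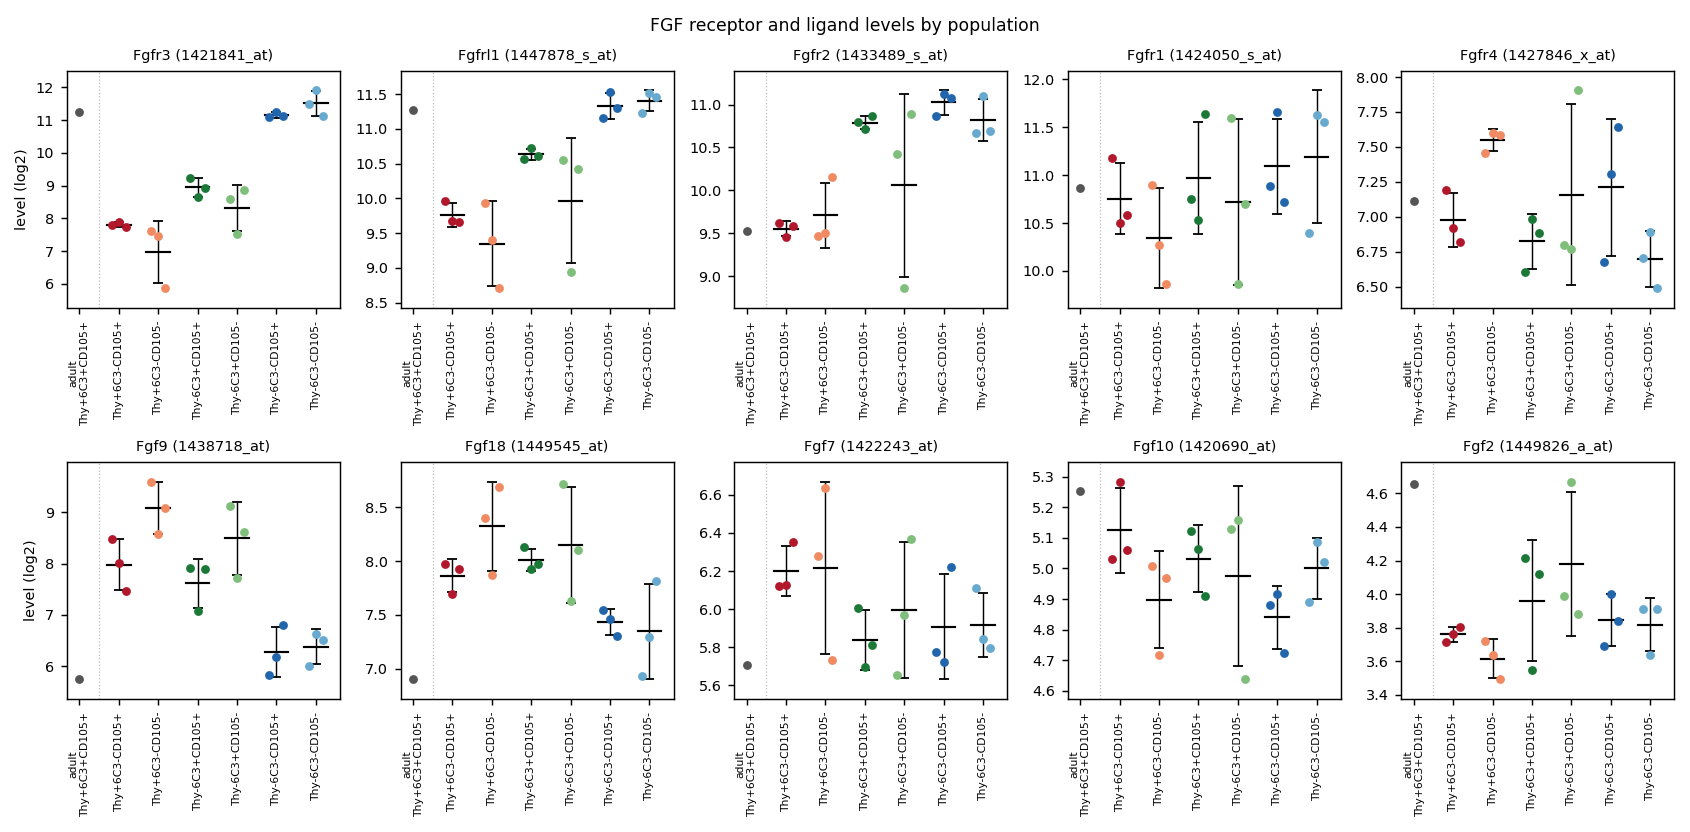
Quantile-normalised log2 level (vertical axis) of the 10 genes, 1 probe set each, on every array by population, with the adult array at the far left and bars for the population mean ± SD (n = 3). The means of Fgfr3 and Fgfrl1 rise through Thy+6C3-, Thy-6C3+ and Thy-6C3- cells, with overlap between Thy+6C3- and Thy-6C3+ arrays. Fgf9 is lowest in Thy-6C3- cells, and Fgf2 and Fgf10 stay flat.

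Fgfr2, a receptor of bone-forming and perichondrial cells, was lower in Thy+6C3- cells. With probe set 1433489_s_at it was 9.62, 9.46 and 9.58 in Thy+6C3-CD105+ and 9.47, 9.50 and 10.15 in Thy+6C3-CD105- cells. Thy-6C3+CD105+ arrays had 10.79, 10.71 and 10.86 and Thy-6C3+CD105- arrays 10.43, 8.86 and 10.89. Thy-6C3-CD105+ arrays had 10.86, 11.13 and 11.08 and Thy-6C3-CD105- arrays 10.67, 11.10 and 10.69. Thy+6C3- arrays lay below Thy-6C3- arrays without overlap, whereas Thy-6C3+ arrays, apart from replicate 2 of Thy-6C3+CD105-, were near them.

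Fgfr2 fell 2.77-fold in the Thy step of CD105+ cells (log2 change -1.47 ± 0.35, SE; adjusted p 0.0121) and 2.16-fold in that of CD105- cells (-1.11 ± 0.35; adjusted p 0.0353). The first of these did not hold without Thy-6C3-CD105+ replicate 3 (-1.44, adjusted p 0.0516) or Thy+6C3-CD105+ replicate 2 (-1.42, 0.0531). The second held only when Thy+6C3-CD105- replicate 3 was the array left out. Without Thy+6C3-CD105- replicate 1 or 2 it was -0.99 (adjusted p 0.0736) or -1.01 (0.0817), and without Thy-6C3-CD105- replicate 1, 2 or 3 it was -1.19 (0.064), -0.97 (0.097) or -1.18 (0.0769). A second probe set, 1420847_a_at, gave changes of -0.997 (adjusted p 0.0352) and -1.33 (adjusted p 0.00361) in the Thy step of CD105+ and CD105- cells. The third, 1443211_at, stayed between 5.18 and 6.50 on the neonatal arrays.

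No 6C3 step of Fgfr2 passed (log2 change -0.23 ± 0.35 in CD105+ and -0.76 ± 0.35 in CD105- cells, adjusted p 1 and 0.333). Thy+6C3-CD105+ against Thy-6C3+CD105+ cells gave -1.24, which missed the threshold (adjusted p 0.0773). In CD105- cells that contrast was -0.35 (adjusted p 0.611), and without Thy-6C3+CD105- replicate 2 it was -0.95 (adjusted p 0.0415). Without the 2 arrays that stood apart it was -1.17 (adjusted p 0.00283) in CD105- cells and -1.24 (adjusted p 8.58e-05) in CD105+ cells.

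Fgfr1, a receptor active in mesenchyme and maturing bone cells, passed in no comparison by the probe set with the highest mean. That set, 1424050_s_at, gave 11.18, 10.50 and 10.58 in Thy+6C3-CD105+ and 10.90, 10.27 and 9.86 in Thy+6C3-CD105- cells. It gave 10.75, 10.54 and 11.64 in Thy-6C3+CD105+ and 11.60, 9.86 and 10.69 in Thy-6C3+CD105- cells. The Thy-6C3-CD105+ arrays had 10.89, 11.66 and 10.72 and the Thy-6C3-CD105- arrays 10.40, 11.63 and 11.56. Arrays of every population overlapped.

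The Thy step of this Fgfr1 set was -0.33 in CD105+ cells (95% interval -1.24 to 0.57) and -0.85 in CD105- cells (-1.75 to 0.05). In CD105- cells it passed with the values as deposited (-1.25, adjusted p 0.0427), with a common median per array (-1.39, 0.0443) and with the mean of the Fgfr1 probe sets (-1.12, 0.0366). With probe set 1425911_a_at, the Fgfr1 level was 6.74, 6.65 and 7.42 in Thy+6C3-CD105- cells, against 7.96, 7.91 and 9.16 in Thy-6C3-CD105- cells. This 2.65-fold decrease passed in the fit of all probe sets (log2 change -1.41 ± 0.35, adjusted p 0.0143). The third set, 1436551_at, was between 7.13 and 8.08 on the neonatal arrays of all populations other than Thy+6C3-CD105- (7.63, 6.28 and 6.60) and Thy-6C3+CD105- (7.53, 4.38 and 6.44).

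Fgfr4, a receptor known for its role in muscle and liver, had 5 probe sets that did not move together. The set with the highest mean, 1427846_x_at, read 7.46, 7.60 and 7.59 in Thy+6C3-CD105- cells, against 6.71, 6.89 and 6.49 in Thy-6C3-CD105- cells. Set 1418596_at read 4.87, 4.89 and 5.20 in Thy+6C3-CD105- cells, against 7.09, 6.36 and 6.79 in Thy-6C3-CD105- cells. The groups did not overlap with either set, and the signs were opposite.

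For Fgfr4 by 1427846_x_at the change in the Thy step of CD105- cells was 0.85 ± 0.29 (SE; adjusted p 0.047, and 0.0546 in the fit of all probe sets). It was lost on leaving out any 1 of the 6 arrays compared, with changes of 0.90, 0.83 and 0.83 without Thy+6C3-CD105- replicate 1, 2 and 3 (adjusted p 0.0555, 0.0854 and 0.111) and of 0.86, 0.95 and 0.75 without Thy-6C3-CD105- replicate 1, 2 and 3 (0.102, 0.0572 and 0.15). By 1418596_at, in the fit of all probe sets, Fgfr4 fell in the Thy step by 1.42 log2 in CD105+ cells (adjusted p 0.00259) and by 1.76 log2 in CD105- cells (adjusted p 0.000346). With that set it also fell in the 6C3 step by 1.21 log2 in CD105+ cells (adjusted p 0.0387) and by 1.29 log2 in CD105- cells (adjusted p 0.0128). An _x_at suffix marks sets with probes that can match other transcripts, and which of the Fgfr4 sets follows the Fgfr4 transcript was not tested.

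**Figure D2:**
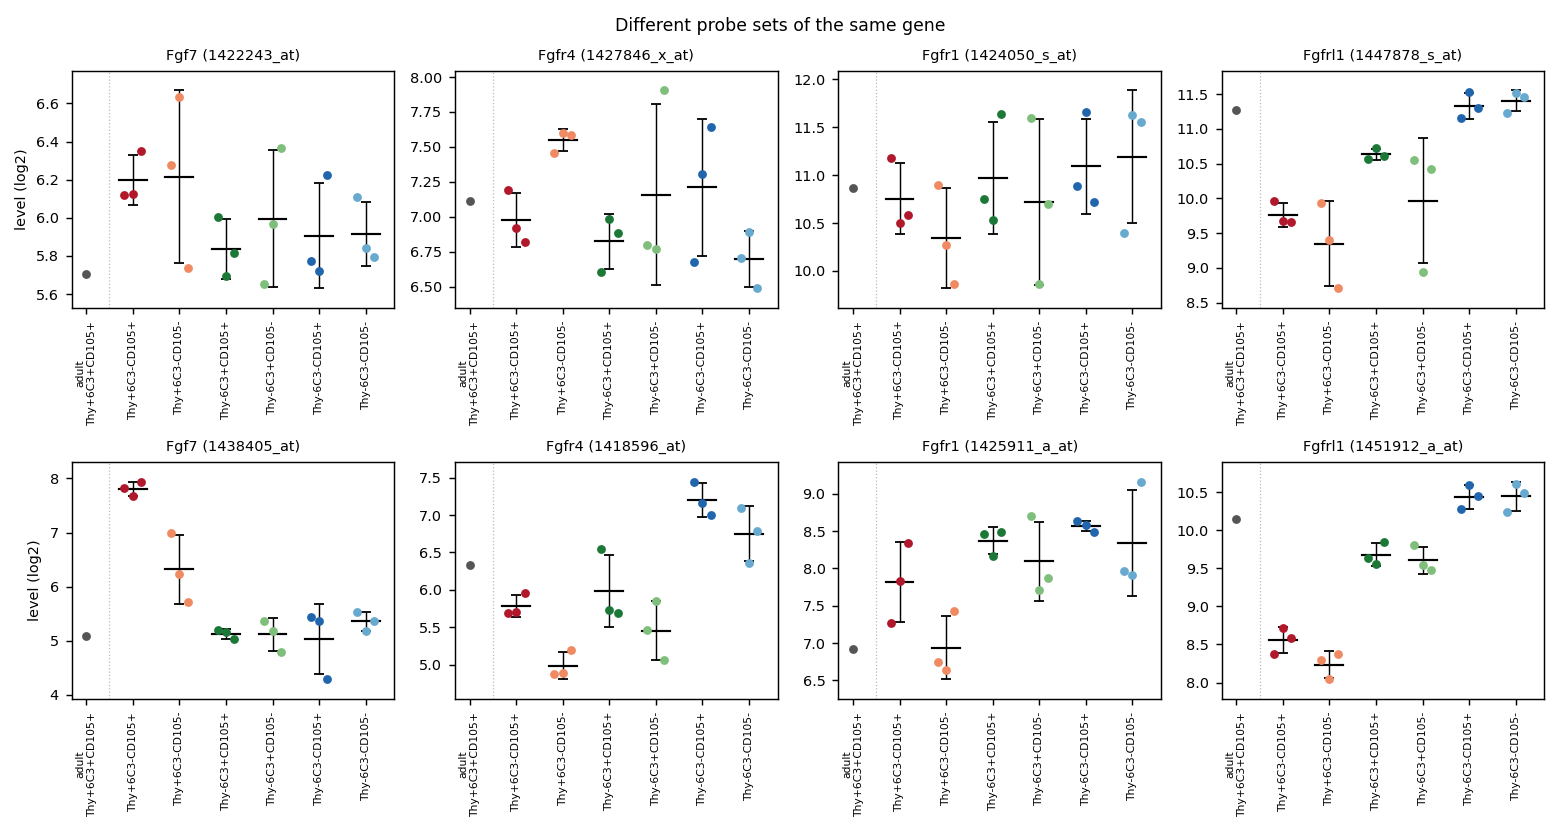
Quantile-normalised log2 level (vertical axis) on each array by population for 2 probe sets each of Fgf7, Fgfr4, Fgfr1 and Fgfrl1, a column of panels per gene, with the set of the highest mean above and below it the other set with the lowest F-test p, and bars for the mean ± SD (n = 3). For Fgf7 only 1438405_at separates Thy+6C3-CD105+ cells, the Fgfr4 sets 1418596_at and 1427846_x_at run in opposite directions between Thy+6C3-CD105- and Thy-6C3-CD105- cells, and both Fgfrl1 sets step the same way.

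Among the ligands, Fgf9, a secreted factor that signals through Fgfr3 and other receptors in cartilage, was higher in Thy+6C3- and Thy-6C3+ cells. By probe set 1438718_at it was 8.47, 8.01 and 7.47 in Thy+6C3-CD105+ and 9.60, 8.58 and 9.08 in Thy+6C3-CD105- cells. In Thy-6C3+ cells it was 7.91, 7.07 and 7.89 with CD105 and 9.13, 7.72 and 8.63 without. Thy-6C3-CD105+ arrays had 5.83, 6.18 and 6.80 and Thy-6C3-CD105- arrays 6.00, 6.63 and 6.52. Every Thy-6C3- array lay below every neonatal Thy+ and 6C3+ array.

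Fgf9 rose 3.28-fold in the Thy step of CD105+ cells (log2 change 1.71 ± 0.38, SE; adjusted p 0.00823) and 6.53-fold in that of CD105- cells (2.71 ± 0.38; adjusted p 0.000134). Without replicate 1 of either group the first was 1.47 or 1.49 (adjusted p 0.0516 without Thy+6C3-CD105+ and 0.0515 without Thy-6C3-CD105+ replicate 1). In the 6C3 step Fgf9 rose 4.33-fold in CD105- cells (2.11 ± 0.38; adjusted p 0.00332). In CD105+ cells that step gave 1.35 ± 0.38, which did not pass (adjusted p 0.115), and without the 2 arrays that stood apart it did (adjusted p 0.0481). It also passed with the mean of the Fgf9 probe sets (1.10, adjusted p 0.0206) and with a poly-A control block (1.35, adjusted p 0.0377). The second Fgf9 set, 1420795_at, rose in the Thy step and in the 6C3 step of CD105- cells (1.15 and 1.09, adjusted p 0.00496 and 0.0218) and gave 0.57 and 0.84 in CD105+ cells (adjusted p 0.267 and 0.168). In falling order of the Fgf9 means, Thy+6C3-CD105- stood at 9.09, Thy-6C3+CD105- at 8.49, Thy+6C3-CD105+ at 7.98, Thy-6C3+CD105+ at 7.62, Thy-6C3-CD105- at 6.38 and Thy-6C3-CD105+ at 6.27. No neighbours in this order differed by the test, the widest gap being 1.24 between Thy-6C3+CD105+ and Thy-6C3-CD105- (adjusted p 0.123).

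Fgf18, a ligand made by perichondrium that acts on chondrocytes, had a smaller difference of the same sign. Its single probe set read 7.98, 7.70 and 7.92 in Thy+6C3-CD105+ and 8.40, 7.87 and 8.69 in Thy+6C3-CD105- cells. The Thy-6C3+CD105+ arrays had 8.13, 7.93 and 7.98 and the Thy-6C3+CD105- arrays 8.72, 7.63 and 8.10. Thy-6C3-CD105+ arrays had 7.54, 7.47 and 7.30 and Thy-6C3-CD105- arrays 6.93, 7.30 and 7.81. The ranges of the populations lay close together, and those of the 6C3 step in CD105- cells overlapped.

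In the Thy step of CD105- cells Fgf18 rose 1.97-fold (log2 change 0.98 ± 0.28, SE; adjusted p 0.0227), where the median of all genes was 0.13. The change was 0.64 with the values as deposited (adjusted p 0.099) and 0.50 with a common median per array (adjusted p 0.237), and 0.79 without the 2 arrays that stood apart (adjusted p 0.056). Leaving out Thy+6C3-CD105- replicate 3 gave 0.79 (adjusted p 0.095), and leaving out Thy-6C3-CD105- replicate 1 or 2 gave 0.77 (0.103) or 0.95 (0.0527). The Thy step of CD105+ cells was 0.43 (adjusted p 0.542) and the 6C3 steps were 0.58 in CD105+ and 0.80 in CD105- cells (adjusted p 0.659 and 0.163). The 6C3 step of Fgf18 in CD105- cells passed with array weights (1.15, adjusted p 0.0143) and without the 2 arrays that stood apart (1.06, adjusted p 0.026).

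Fgf7, a mesenchymal ligand best known for acting on epithelium, depended on the probe set. By 1422243_at, the set with the higher mean, it stayed between 5.65 and 6.64 on the neonatal arrays and no comparison passed. By 1438405_at it was 7.82, 7.67 and 7.93 in Thy+6C3-CD105+ and 6.99, 6.24 and 5.73 in Thy+6C3-CD105- cells. The Thy-6C3+CD105+ arrays had 5.21, 5.16 and 5.03 and the Thy-6C3+CD105- arrays 5.37, 5.19 and 4.79. Thy-6C3-CD105+ arrays read 5.45, 5.37 and 4.28 and Thy-6C3-CD105- arrays 5.54, 5.18 and 5.36. The Thy+6C3-CD105+ arrays were above all others, followed by Thy+6C3-CD105-.

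In the fit of all probe sets, Fgf7 by 1438405_at rose 6.85-fold in the Thy step of CD105+ cells (log2 change 2.78 ± 0.31, SE; adjusted p 1.83e-05) and 1.95-fold in that of CD105- cells (0.96 ± 0.31; adjusted p 0.0454). Thy+6C3-CD105+ cells were higher than Thy-6C3+CD105+ cells by 2.68 log2 (adjusted p 5.56e-05) and higher than Thy+6C3-CD105- cells by 1.49 log2 (adjusted p 0.0276). The difference between the Thy steps of CD105+ and CD105- cells, 1.82 ± 0.44, did not pass (adjusted p 0.118). By 1422243_at the Thy steps were 0.29 (95% interval -0.21 to 0.79) in CD105+ and 0.30 (-0.20 to 0.80) in CD105- cells.

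Fgf10, a ligand needed for limb bud outgrowth, ran from 4.64 to 5.28 over the neonatal arrays, and Fgf2, a ligand stored in the matrix, from 3.49 to 4.67. Of all genes, 21.7% had a lower mean than Fgf10 and 5.62% a lower mean than Fgf2. Neither passed in any comparison, and the largest change of Fgf2 was -0.56 in Thy+6C3-CD105- against Thy-6C3+CD105- cells (adjusted p 0.136).

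Counted by comparison, 4 of the 10 members passed in the Thy step of CD105+ cells, 1 higher and 3 lower, where 6.66% of all genes passed (4.03% higher and 2.63% lower). In the Thy step of CD105- cells 6 passed, 3 higher and 3 lower, against 18% of all genes (10.5% higher and 7.45% lower), and leaving out 1 array left 3 (without Thy-6C3-CD105- replicate 1 or 2) or 4. In the 6C3 step 1 member passed, lower, in CD105+ cells (1.36% of all genes, 0.797% lower) and 3 in CD105- cells, 1 higher and 2 lower (2.74%, with 1.24% higher and 1.5% lower). Without the 2 arrays that stood apart, 3 members passed in the 6C3 step of CD105+ cells. By any probe set of a gene, 6 and 8 members passed in the Thy steps of CD105+ and CD105- cells. In the 6C3 steps 2 and 4 did. Counted singly, 4.79% and 14.5% of all probe sets passed in the Thy steps and 0.718% and 1.79% in the 6C3 steps. A gene with several sets can pass by any of them, so these shares and the member counts are unlike measures. The median change of the 10 members was -0.16, -0.15, -0.09 and 0.03 in these 4 comparisons, and that of all genes was -0.02, 0.13, 0.00 and 0.07.

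**Figure D3:**
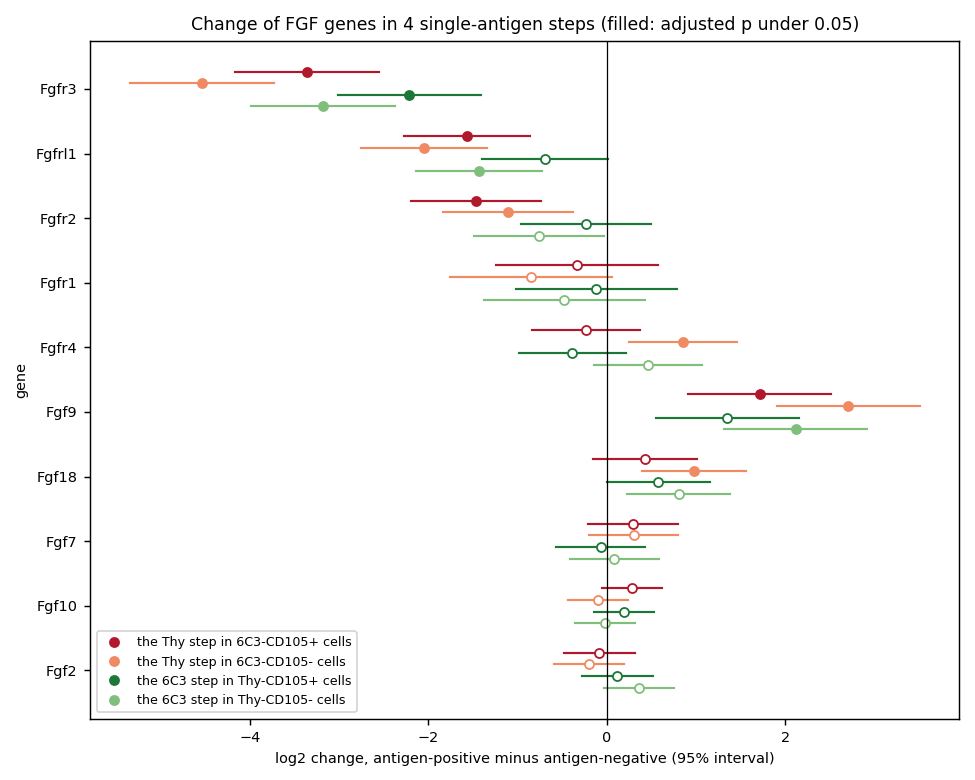
Log2 change of each gene with its 95% interval (horizontal axis) in the 2 Thy steps and the 2 6C3 steps, each against Thy-6C3- cells of the same CD105 status, with filled points where limma's adjusted p was under 0.05. Fgfr3 lies furthest to the left in all 4, from -2.21 to -4.54, and Fgf9 furthest to the right, from 1.35 to 2.71.

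No member passed for CD105 status by limma in the gene-level fit. In Thy+6C3- cells, where 1.02% of all genes passed, 0 of 10 members did, with 2 at an unadjusted p under 0.05, and the Fgfr3 difference was 0.83 (95% interval 0.02 to 1.63, adjusted p 0.214) and that of Fgf9 -1.10 (-1.90 to -0.30, adjusted p 0.139). With array weights the Fgf9 difference was -1.02 and passed (adjusted p 0.0495). By any probe set 1 member passed in Thy+6C3- cells, Fgf7, where 0.747% of all probe sets, counted singly, passed. In Thy-6C3+ cells 0 members and 0% of all genes passed, with 2 members at an unadjusted p under 0.05, and Fgf9 differed by -0.87 (-1.67 to -0.07, adjusted p 1). In Thy-6C3- cells 0 members passed, also at an unadjusted p, where 0.00550% of all genes passed. There Fgfr3 differed by -0.35 (-1.16 to 0.45) and Fgf9 by -0.11 (-0.91 to 0.69).

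Between Thy+6C3- and Thy-6C3+ cells no member passed by limma, with 3 at an unadjusted p under 0.05 in CD105+ cells (2.59% of all genes passed) and 2 in CD105- cells (2.24%). Neither did the difference between the Thy steps of CD105+ and CD105- cells (0.269% of all genes; 2 members unadjusted) nor that between the 6C3 steps (0%; 0 members unadjusted). For Fgfr3 these differences were 1.18 (95% interval 0.04 to 2.32) and 0.97 (-0.17 to 2.11). By any probe set, 2 members passed in Thy+6C3- against Thy-6C3+ cells with CD105, Fgf7 and Fgfrl1, and 1 without CD105, Fgfrl1. Counted singly, 1.70% and 1.37% of all probe sets passed.

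Spiked poly-A control probe sets split the neonatal arrays into 11 high and 7 low arrays, with both kinds in every population. The Thy step of Fgfr3 was -3.30 among high and -3.47 among low arrays in CD105+ cells, and -4.85 and -3.91 in CD105- cells. For Fgf9 the values were 1.43 and 2.29 in CD105+ and 2.83 and 3.03 in CD105- cells. For Fgfrl1 they were -1.57 and -1.56, and -2.18 and -1.55, and for Fgfr2 -1.45 and -1.51, and -0.84 and -1.42. The 6C3 step of Fgfr3 was -2.16 and -2.32 in CD105+ and -3.32 and -2.91 in CD105- cells. Each direction was the same among high and low arrays, with 1 or 2 arrays a group.

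Markers of skeletal cell types also differed between these populations, in both directions. All 12 chondrocyte markers (among them Col2a1, Acan and Sox9) fell in both Thy steps, and 6 and 7 of 12 fell in the 6C3 steps of CD105+ and CD105- cells. Their summed level was 13.99 to 14.25 and 14.00 to 14.22 log2 in Thy+6C3-CD105+ and Thy+6C3-CD105- cells, 15.29 to 15.35 and 15.13 to 15.23 in Thy-6C3+CD105+ and Thy-6C3+CD105- cells, and 16.00 to 16.07 and 16.05 to 16.26 in Thy-6C3-CD105+ and Thy-6C3-CD105- cells. The means of Fgfr3 by 1421841_at and of Fgfrl1 had this order of the 3 kinds of cells. The order is that of the sum and not of every marker. In Thy+6C3- against Thy-6C3+ cells 4 of 12 markers were lower and 1 higher in each CD105 state. With CD105, Matn1 averaged 8.08 in Thy+6C3- and 5.59 in Thy-6C3+ cells. By 1425796_a_at, Fgfr3 averaged higher in Thy+6C3-CD105- than in both Thy-6C3+ populations. Fgf9 was lowest in Thy-6C3- cells, where the sum was highest. Ihh in Thy+6C3-CD105+ and Matn1 in Thy-6C3+CD105- cells were below the lower quartile of gene means, 5.17, on all arrays. Of 9 tendon and fibrous markers 5 and 6 rose in the Thy steps of CD105+ and CD105- cells, and 1 and 3 in the 6C3 steps. Of 5 measured osteoblast markers 2 and 4 fell in the Thy steps and 1 and 2 in the 6C3 steps. Among all genes 4.03% rose and 2.63% fell in the Thy step of CD105+ cells, and 10.5% rose and 7.45% fell in that of CD105- cells. In the 6C3 steps 1.36% and 2.74% of all genes passed. The part of these cell types in the FGF gene differences was not tested.

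**Figure D4:**
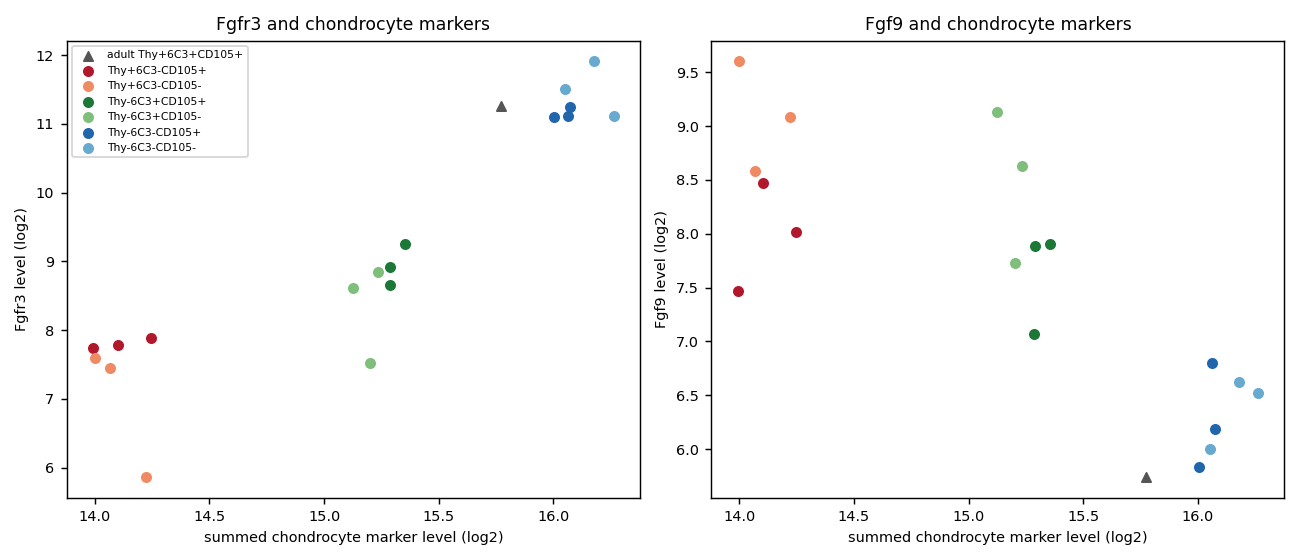
Level of Fgfr3 (1421841_at) and Fgf9 (1438718_at) in quantile-normalised log2 (vertical axes) against the summed log2 level of the 12 chondrocyte markers (horizontal axis), 1 point per array, coloured by population. The Thy+6C3-, Thy-6C3+ and Thy-6C3- arrays lie apart along the marker sum, with CD105+ and CD105- arrays of a kind overlapping or adjacent, and the Thy-6C3- arrays, at the high end of the sum, are high in Fgfr3 and low in Fgf9.

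Thy+6C3-CD105+ cells, where Fgf7 by 1438405_at was highest, were also highest in pericyte and smooth muscle markers. All 8 rose in the Thy step of CD105+ cells, while 4 rose and 1 fell in that of CD105- cells. Their summed level was 14.38 to 14.51 in Thy+6C3-CD105+, 12.90 to 13.15 in Thy+6C3-CD105- and 11.88 to 13.08 in the other neonatal populations. In Thy+6C3-CD105- cells, where Fgf9, Fgf18 and 1427846_x_at of Fgfr4 were higher than in Thy-6C3-CD105- cells, keratinocyte markers summed to 9.997 to 10.62, against at most 9.48 in the other neonatal populations, and 3 of 9 rose in that Thy step (Krt5, Krt14 and Krt15). Endothelial markers summed to 9.53 to 9.82 in Thy+6C3-CD105+ and 8.30 to 8.66 in Thy-6C3-CD105+ cells, with 4 of 8 higher in that Thy step. In the Thy step of CD105- cells their sums were 8.84 to 9.21 in Thy+6C3-CD105- and 8.31 to 8.43 in Thy-6C3-CD105- cells, and 2 of 8 rose, Sox18 by 1.57 log2 and Tek by 1.51 log2. Tek, the gene for the gated antigen Tie2, rose in both Thy steps (1.11 and 1.51, adjusted p 0.000349 and 1.45e-05). Of 8 muscle precursor markers 1 rose in each Thy step. Myeloid markers summed to 9.33 to 10.14 in Thy+6C3-CD105- cells, against 8.46 to 8.74 in Thy-6C3-CD105- cells, and 2 of 8 rose in that Thy step (Laptm5 and Csf1r), with Ptprc, the gene for the gated antigen CD45, at 4.35 to 5.10 in Thy+6C3-CD105- and 3.86 to 4.49 in Thy-6C3-CD105- cells, below the lower quartile. The part of these markers was not tested. Of all genes, 4.03% rose in the Thy step of CD105+ cells and 10.5% in that of CD105- cells.

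The rest of the pathway was followed with 4 gene lists. Of 17 other FGF ligand genes, 2 rose in the Thy step of CD105- cells, Fgf4 by 0.91 and Fgf8 by 0.60 log2 (adjusted p 0.0365 and 0.0339), and none passed in the other 10 comparisons by limma. The share of all genes that rose in that step was 10.5%, near that of the list. The median change of the list in that step was 0.48, against 0.13 for all genes. Both are ligands of the limb bud ridge. Fgf8 averaged 4.41 ± 0.33 and 3.82 ± 0.17 in Thy+6C3-CD105- and Thy-6C3-CD105- cells, which is below the lower quartile of gene means.

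Of 29 measured genes for co-receptors and heparan sulfate, 2 rose and 0 fell in the Thy step of CD105+ cells, and 2 rose and 4 fell in that of CD105- cells. Of all genes, 4.03% rose and 2.63% fell in the former, and 10.5% rose and 7.45% fell in the latter. The list's median change was 0.19 and 0.13, against -0.02 and 0.13 for all genes. Sulf1, an enzyme that removes sulfate groups from heparan sulfate, rose in all 4 steps, by 1.21 and 0.998 log2 in the Thy step of CD105+ and CD105- cells and by 0.79 and 0.66 log2 in the 6C3 step. Hs3st1, a heparan sulfate sulfotransferase, rose by 1.14 log2 in the Thy step of CD105+ cells (adjusted p 0.0247). In the Thy step of CD105- cells Gpc6, a glypican carrying heparan sulfate chains, fell by 2.25 log2 and the sulfotransferases Hs3st3a1 and Hs6st2 fell by 1.78 and 1.77 log2 (adjusted p 0.0146, 0.00254 and 0.00485). In the 6C3 step 1 gene of this list passed in CD105+ cells and 2 in CD105- cells, all higher, the second being the related enzyme gene Sulf2 (0.56, adjusted p 0.0492). There 1.36% and 2.74% of all genes passed.

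Of 18 measured genes of intracellular signalling, 3 fell in the Thy step of CD105- cells, where 18% of all genes passed and 7.45% fell. The list's median there was -0.24, against 0.13 for all genes, and no gene of the list passed elsewhere. They were Sos2, an exchange factor for RAS (-2.13, adjusted p 0.012), Gab1, a docking protein (-1.12, adjusted p 0.000499), and the kinase gene Braf (-0.86, adjusted p 0.0225). Sos2 averaged 5.57 ± 1.36 and 7.70 ± 0.14 in Thy+6C3-CD105- and Thy-6C3-CD105- cells, so the spread within the Thy+ arrays was wide.

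Of 15 measured feedback genes and targets, 3 rose and 1 fell in the Thy step of CD105+ cells, and 2 rose and 2 fell in that of CD105- cells. Among all genes 4.03% rose and 2.63% fell in the former, and 10.5% rose and 7.45% fell in the latter. The list's median change was 0.16 and -0.20, against -0.02 and 0.13 for all genes. Il17rd and Spry1, inhibitors of FGF signalling, rose in both, Il17rd by 2.12 and 1.499 log2 and Spry1 by 1.69 and 1.58 log2. Etv5, a transcription factor gene induced by FGF signals, fell by 1.65 and 2.81 log2 (adjusted p 0.00385 and 2.18e-05). Dusp4, a MAP kinase phosphatase, rose by 1.55 log2 in CD105+ cells (adjusted p 0.00258). The members of this list thus moved in both directions, and 0 of 15 passed in either 6C3 step by limma.

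Between Thy+6C3- and Thy-6C3+ cells the feedback list gave 2 higher (Dusp4, 1.34, and Il17rd, 1.33) and 1 lower (Etv5, -1.32) with CD105. Without CD105 it gave 1 higher (Il17rd, 1.47) and 2 lower (Etv5, -2.28, and the MAP kinase phosphatase gene Dusp6, -1.60). Of all genes, 2.59% passed in this contrast with CD105 and 2.24% without. With CD105, Etv5 averaged 7.61 ± 0.10 on Thy+6C3- arrays, 8.94 ± 0.14 on Thy-6C3+ arrays and 9.26 ± 0.16 on Thy-6C3- arrays (SD, n = 3 each). Without CD105 its averages were 6.28 ± 0.99, 8.56 ± 0.17 and 9.10 ± 0.34 on the same 3 kinds of arrays. Of the CD105 steps only that in Thy+6C3- cells had a gene of the list that passed, Dusp4, which rose by 1.44 log2 (adjusted p 0.0236). In that step 1.02% of all genes passed.

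Over the 18 neonatal arrays, which group by kind of cell, the pattern most like that of Fgfr3 by Pearson's r was that of Asb4 (0.97), Fbln7 (0.96) and Cpe (0.96), genes for a ubiquitin ligase component, a matrix protein and a carboxypeptidase. For Fgfrl1 they were Fgfr3 itself (0.94), Map9 (0.94) and S100b (0.92). Those most like Fgfr2 were Itpr3 (0.94), Cdkn1c (0.93) and Crispld1 (0.92), and those most like Fgf9 were Creb3l1 (0.92), Dusp3 (0.91) and Flii (0.90). These values describe likeness over the same arrays and were not tested.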

How the data were processed

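Neonatal and adult sorted cells were profiled on single-colour mouse expression arrays after RNA amplification in repeated rounds, per the labels' protocols. The authors deposited log2 intensities per probe set; their summarisation and normalisation were not given in the sources used here. Since the columns' medians differed (5.60 to 6.02), all 19 arrays were quantile-normalised. Of 45101 probe sets, 34945 had 1 gene symbol in the platform annotation and were used; 932 with several, 9160 with none and 64 controls were left out. A gene with several sets was read from the one of highest neonatal mean, which left 18193 genes.

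Populations were compared with limma 3.58.1 in R 4.3.3: 1 mean per population, eBayes with trend, 12 residual degrees of freedom, two-sided tests, Benjamini-Hochberg adjustment within each comparison over all genes (or all probe sets, where named), threshold 0.05. The script was tested on simulated data. The number of arrays limits the precision. All members are named; from each pathway list, up to 3 called genes with the largest change per comparison; for members passing the F-test, the 3 genes with the highest Pearson r. Members and lists were chosen with earlier results of these data known. Of 171 listed genes 159 were measured and the others were not analysed here. Replicate numbers showed no clear pairing of the samples (45 same-number pairs, r of deviations -0.56 to 0.67, median 0.03), so no block entered the main test. These values cannot exclude a pairing. Alternatives were the scaling, the probe set rule, array weights, a poly-A control block, a replicate block, grouping by title, the arrays fitted and leaving out arrays.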

Additional observations from a re-analysis of the deposited data

How the results depend on the processing

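The Fgfr3 calls in the 4 steps, the Fgf9 calls in the Thy and 6C3 steps of CD105- cells and the Fgfrl1 calls in both Thy steps held under the 11 alternatives that kept 1 value per gene and on leaving out any array of the compared groups. The other calls, on Fgfr2, Fgf18, Fgfr4, Fgf9 (Thy step, CD105+) and Fgfrl1 (6C3 step, CD105-), were lost under at least 1. The cause was not tested. Members called in the 6C3 step of CD105+ cells numbered 1, and 2 by any probe set, with the compared populations only, with the mean of the probe sets or with the poly-A control block, and 3 without the 2 arrays that stood apart (chosen after seeing the data). In the CD105 step of Thy+6C3- cells they numbered 0, and 1 by any probe set or with array weights. In Thy+6C3- against Thy-6C3+ cells with CD105 they numbered 0, and 1 by title or as deposited, 2 by any probe set or the mean of the probe sets, and 3 with array weights, with the compared populations only or without the 2 arrays. Without CD105 they numbered 0, and 1 by any probe set, the mean of the probe sets or as deposited, 3 without the 2 arrays, and 0 to 3 leaving out 1 array. The Thy step of CD105- cells gave 6, and 3 to 4 leaving out 1 array, and the F-test gave 4, and 7 by any probe set. The replicate block left the counts at 4 and 6 in the Thy steps, 1 and 3 in the 6C3 steps and 0 in the CD105 steps. By array, 8 of 18 arrays correlated best with one of their own number. Signs turned for Fgf7 in the CD105 step of Thy+6C3- cells (-0.02; 0.0567 with a common median, 0.74 with the mean of the probe sets, 1.49 by 1438405_at, -0.26 to 0.19 leaving out 1 array), for Fgfr2 by 1443211_at (0.0304 in the Thy step of CD105- cells and 0.34 in Thy+6C3-CD105- against Thy-6C3+CD105- cells, and by its main set -0.95 to 0.0649 in that contrast leaving out 1 array, turning without Thy-6C3+CD105- replicate 3), for Fgfr3 by 1425796_a_at in that contrast (0.10) and for Fgfr4 (Thy step of CD105- cells -0.00974 with the mean of the probe sets and -1.76 by 1418596_at; 6C3 step -0.0785, -1.29 and, by 1427776_a_at, -0.0909). Genes called among all genes numbered 1211 (781 to 2889 over the alternatives and left-out arrays) and 3271 (1182 to 4218) in the Thy steps of CD105+ and CD105- cells, and 247 (105 to 652) and 498 (185 to 645) in the 6C3 steps.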

Other observations

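The adult array, labelled Thy+6C3+CD105+ and without a replicate, was set beside the neonatal range without a test. Fgfr3 by 1421841_at read 11.26 there, within the range of the neonatal Thy-6C3- arrays (11.11 to 11.91). Fgfrl1 by 1447878_s_at read 11.28, also within their range. By the other Fgfrl1 set, 1451912_a_at, it read 10.14, below every neonatal Thy-6C3- array (lowest 10.23). Fgf9 by 1438718_at read 5.74 and Fgf18 6.90, both below every neonatal array (lowest 5.83 and 6.93), while the other Fgf9 set, 1420795_at, read 6.98, inside the neonatal range. Fgfr2 read 9.52 by 1433489_s_at, near the neonatal Thy+6C3- arrays. Age, tissue and sorted population differ together on this array and cannot be told apart.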
